A study of Mus musculus with 6 samples.

Results

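The cytosolic sulfotransferases (SULTs) form a family of liver enzymes, and 10 of their genes are described here in mouse liver: *Sult1a1*, *Sult1b1*, *Sult1c2*, *Sult1d1*, *Sult1e1*, *Sult2a1*, *Sult2a8*, *Sult3a1*, *Sult3a2* and *Sult5a1*. They were found by gene symbol, each on 1 row, among the 54532 genes of the deposited table, which lists 21 *Sult* genes when pseudogenes are left out. The 10 genes were chosen by symbol with the knockout-against-control counts of these same libraries already known. Their differences between the groups are therefore given as a description and support no statement about the family. No test was made over the members as a set. Calls on single members below come from a fit over all genes and, for the same reason, only describe these libraries.

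RNA-Seq was performed on whole liver from 3 g*Spns1*-cKO and 3 control mice, 1 poly-A library per mouse, all in the C57BL/6 background. The g*Spns1*-cKO animals carried *Spns1* alleles with loxP sites around exon 3 (*Spns1* fl/fl) together with Rosa26Cre-ERT2, a Cre recombinase expressed throughout the body that tamoxifen activates. Tamoxifen in corn oil was injected i.p. after birth, so exon 3 was deleted in the whole body and not in the liver alone. The methods name *Spns1* fl/fl littermates without Cre as controls, whereas the sample labels call the controls wild type. Whether the controls received tamoxifen, the age at which the livers were taken and the sex of the animals are not given in the sources used here. The replicates are separate animals by their labels.

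SULT enzymes move a sulfate group from the donor PAPS (3′-phosphoadenosine-5′-phosphosulfate) onto small molecules such as phenols, catecholamines, thyroid hormones, estrogens, hydroxysteroids and bile acids. Sulfation makes most of these compounds more soluble in water, ends the action of many hormones and prepares drugs and bile acids for excretion. In mice the liver expresses many SULTs, and several of them are known to differ between males and females.

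All SULTs bind PAPS through a short loop near the start of the protein. The coding sequence of this loop is shown for 4 members, because it is a stretch by which genes that moved in opposite directions are still recognisable as 1 family. Capitals mark bases that differ from the most common base at that position over the 10 members. At 3 positions 2 bases are equally common, and both are in lower case there. Sequences are from GENCODE M21 transcripts (GRCm38), 5′ to 3′, and each stretch is 21 bases.
Sult1a1 (coding bases 142 to 162): acGtacccaaagtctggtacT
Sult1e1 (coding bases 133 to 153): acatatccTaaatctggtacc
Sult2a8 (coding bases 121 to 141): acTtatccaaaatcaggAacc
Sult5a1 (coding bases 127 to 147): acatTtccCaagtcaggtacc
The stretches differed from the most common bases at 1 to 2 positions in these 4 genes and at 0 to 4 over all 10. The stretch of *Sult5a1* encodes 6 of the 7 amino acids of the loop searched for, and the other members encode all 7. Over the whole coding sequence, identity between members ranged from 54.0% for *Sult1d1* and *Sult5a1* to 90.9% for *Sult3a1* and *Sult3a2*. The level of identity bears on the counts, since reads from near-identical genes can be assigned to either copy or left uncounted. In the transcripts of the annotation, *Sult2a1* was the only member with any stretch of 100 bases shared exactly with another *Sult* gene (11.4% of its stretches, mainly with *Sult2a2*), so its counts and those of *Sult2a2*, *Sult2a4* and *Sult2a5* are uncertain. Sgf29 lies over *Sult1a1* on the opposite strand with 447 to 637 counts, and whether counting used strand is not given in the sources used here.

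The libraries held 30350002 to 35295611 counts. Levels are given as CPM, the counts of a gene relative to its library total, after TMM scaling, which sets library sizes so that most genes do not differ between libraries. A difference between the groups is a log2 fold change, g*Spns1*-cKO minus control, with its standard error (SE) from edgeR, and a gene was called where edgeR's adjusted p was under 0.05. Of the 15449 genes tested, 3286 were called higher and 3166 lower with the knockout. With scaling to library size only, 7289 were called higher and 970 lower and the median difference over all genes, on the log2 scale, moved from 0.014 to 0.457. Upper-quartile scaling gave 4111 higher and 2240 lower with a median of 0.143. *Spns1* itself was present at 35.9, 50.7 and 34.6 CPM in control and 17.8, 30.6 and 17.8 CPM in g*Spns1*-cKO livers. Its log2 fold change was -0.87 (SE 0.25, adjusted p = 0.03 by edgeR). Reads on exons outside exon 3 are included in that value, so it does not measure the deletion directly. The call on *Spns1* was lost with library size only (log2 fold change -0.43), with upper-quartile scaling (-0.74), and without control replicate 2 (-0.68), g*Spns1*-cKO replicate 1 (-0.74) or g*Spns1*-cKO replicate 3 (-0.74). g*Spns1*-cKO replicate 1 stood apart from the other g*Spns1*-cKO livers for several genes below, and values without it are given there. In whole liver, fewer cells of a type and less RNA per cell cannot be told apart.

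Of the 10 members, 8 had enough counts to be tested, *Sult1e1* and *Sult3a1* only through the g*Spns1*-cKO livers. Among these, *Sult1c2*, *Sult1d1*, *Sult1e1* and *Sult3a1* were higher with the knockout and *Sult1b1*, *Sult2a8* and *Sult5a1* were lower, while *Sult1a1* was called in neither direction. The background is 21.3% of all genes tested called higher and 20.5% called lower. The same 4 genes had no overlap between the groups on the higher side and the same 3 on the lower side, against 27.1% and 26.9% of all genes tested. Nothing is read from these counts, because the members were chosen with this contrast known. The median log2 fold change over the 8 genes was 0.39, beside 0.014 over all genes. *Sult2a1* had too few counts to be tested, and *Sult3a2* had 0 counts in all 6 libraries.

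**Figure D1:**
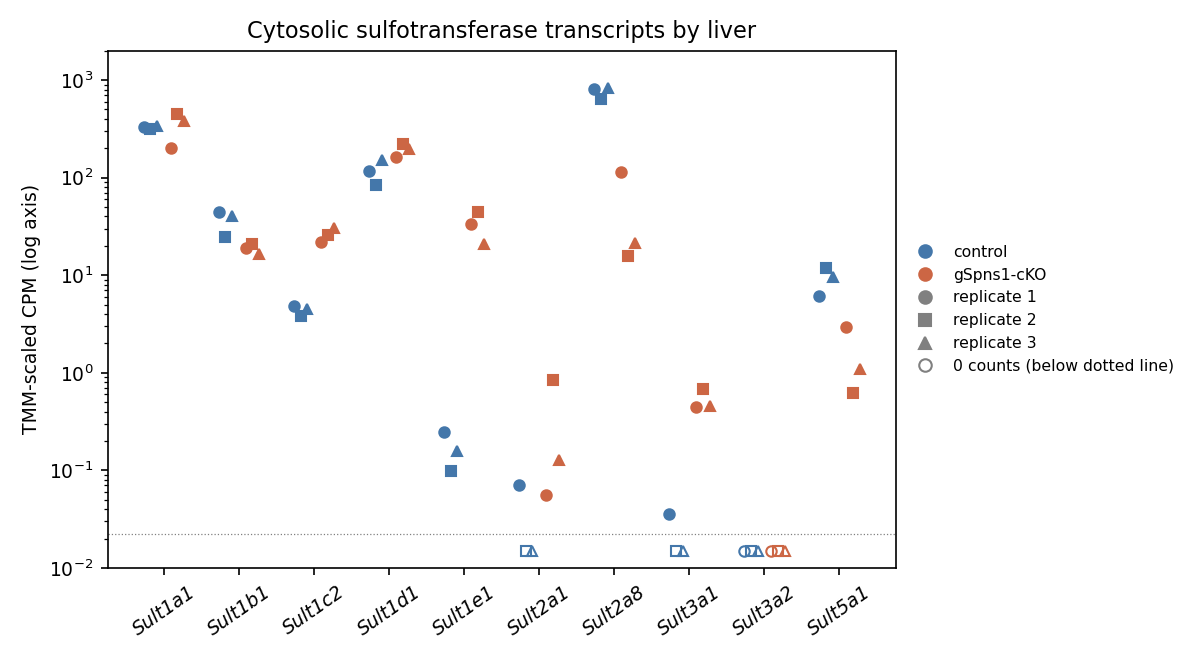
TMM-scaled CPM (log axis) of the 10 sulfotransferase genes in each control (blue) and gSpns1-cKO (orange) liver, with the marker shape giving the replicate and open markers under the dotted line standing for 0 counts. Sult1e1 lies between 0.0974 and 0.249 CPM in control and between 20.8 and 44.0 CPM in gSpns1-cKO livers, and Sult2a8 shows the opposite order with gSpns1-cKO replicate 1 at 114 CPM above the other two.

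*Sult1e1*, the estrogen sulfotransferase, which inactivates estrogens at very low concentrations, had the largest difference upward. The control livers held 7, 3 and 4 of its counts, whereas 1207, 1690 and 818 counts were found in the g*Spns1*-cKO livers. All control values were close to the limit of detection and all g*Spns1*-cKO values were far above them. The mean level was 0.168 ± 0.0763 CPM (SD, n = 3) in control and 32.8 ± 11.6 CPM in g*Spns1*-cKO livers. The log2 fold change was 7.59 (SE 0.43), and it lay between 7.28 and 7.98 when each mouse was left out in turn.

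*Sult1e1* is on the reverse strand of chromosome 5. The 250 bases before its RefSeq start are shown because it was the member with the largest difference upward. Capitals mark the only match found there to the motifs searched, the nuclear receptor motif AGGTCA read on the opposite strand, 113 to 108 bases before the start (RefSeq, GRCm38.p6).
Sult1e1 chr5:87591612-87591861 (reverse strand): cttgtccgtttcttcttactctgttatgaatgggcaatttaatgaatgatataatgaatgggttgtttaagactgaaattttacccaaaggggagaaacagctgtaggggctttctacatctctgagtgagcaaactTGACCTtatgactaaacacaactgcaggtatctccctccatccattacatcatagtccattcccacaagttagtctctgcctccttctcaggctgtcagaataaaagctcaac
This motif, searched on both strands, is in 14.0% of all 32851 RefSeq windows of this length and in 3 of the 11 windows of the members, those of *Sult1b1*, *Sult1e1* and 1 start of *Sult2a8*. RefSeq windows were found for 9 of the 10 members, and *Sult2a1* had none. The other motifs searched were the TATA box (spelled TATAAA, in 12.4% of all windows and 3 of the 11), GTTAAT (part of the HNF1 site, 6.43% and 3), TTCNNNGAA (STAT palindrome, 7.02% and 1), TTGCNNAA (C/EBP core, 9.56% and 1) and CACGTG (E-box, 6.02% and 0). *Sult1b1* and *Sult1e1*, which differed between the groups in opposite directions, both held the nuclear receptor motif, at 123 to 118 and 113 to 108 bases before the start.

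*Sult1d1*, which sulfates dopamine and other catecholamines in rodents, was measured at 116, 84.5 and 152 CPM in control and 161, 220 and 196 CPM in g*Spns1*-cKO livers. The highest control liver and the lowest g*Spns1*-cKO liver were close together, and the groups did not overlap. The log2 fold change was 0.71 (SE 0.21), or 1.64-fold. This call was the least stable among the higher members: it was lost without control replicate 1 (log2 fold change 0.69), control replicate 2 (0.51), g*Spns1*-cKO replicate 2 (0.60) or g*Spns1*-cKO replicate 3 (0.70). *Sult1b1*, which acts on thyroid hormones and simple phenols, was measured at 44.2, 24.9 and 40.9 CPM in control and 19.2, 20.9 and 16.6 CPM in g*Spns1*-cKO livers. Control replicate 2 lay nearest to the g*Spns1*-cKO livers, which were all lower. The log2 fold change was -0.96 (SE 0.21), or 1.94-fold lower, and with library size only it was -0.51 and no longer called.

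*Sult1b1*, *Sult1d1* and *Sult1e1* lie next to each other on the reverse strand of chromosome 5, within 78.3 kb (GRCm38, bases 87513339 to 87591594). The deposited table has no other gene in this interval. Hence 3 neighbouring genes differed in size and in direction, from 1.94-fold lower for *Sult1b1* through 1.64-fold higher for *Sult1d1* to 193-fold higher for *Sult1e1*.

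**Figure D2:**
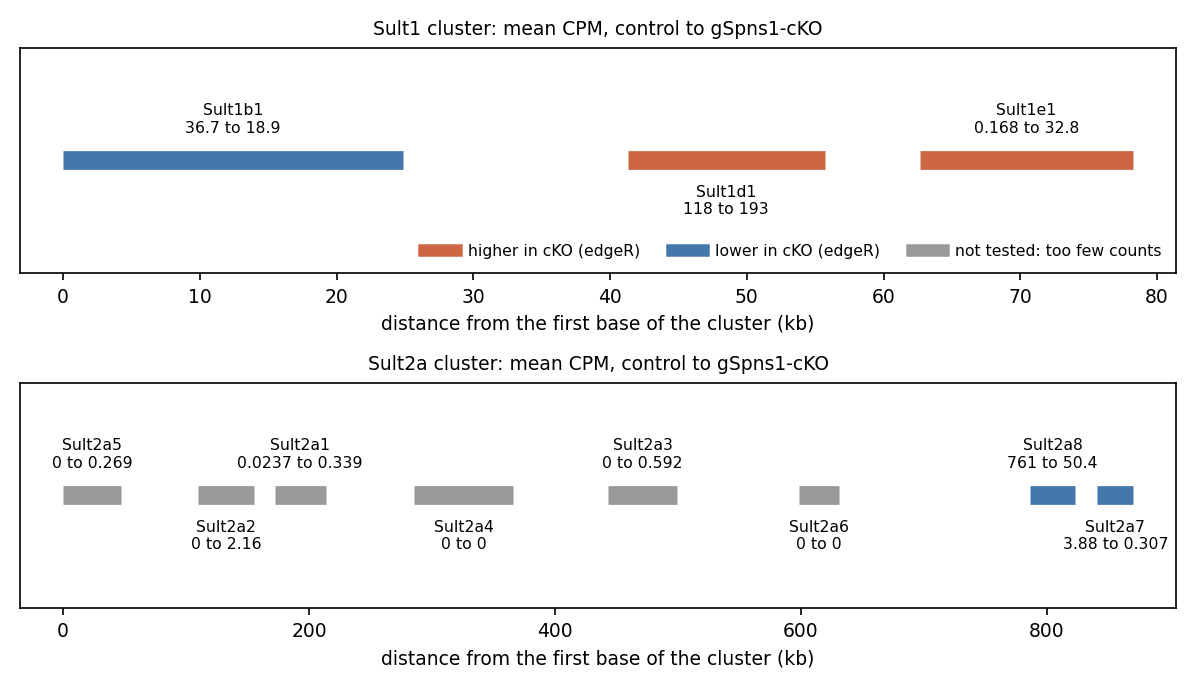
Genes of the Sult1 cluster on chromosome 5 (top) and the Sult2a cluster on chromosome 7 (bottom), drawn to scale as kilobases from the first base of each cluster, with the mean CPM in control and then in gSpns1-cKO livers under or over each name. Orange genes were called higher and blue genes lower by edgeR, and grey genes had too few counts to be tested. Sult1b1 (36.7 to 18.9 CPM) and Sult1e1 (0.168 to 32.8 CPM) differ in opposite directions, and Sult2a8 and Sult2a7 at one end of their cluster are both lower.

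*Sult1c2*, a sulfotransferase of small phenols encoded on chromosome 17, had the smallest SE of the members that were higher. It was measured at 4.87, 3.80 and 4.54 CPM in control livers and at 21.8, 26.0 and 30.4 CPM in g*Spns1*-cKO livers. The lowest g*Spns1*-cKO liver was well above the highest control liver. The log2 fold change was 2.57 (SE 0.16), or 5.93-fold, with 2.44 to 2.68 when each mouse was left out in turn.

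*Sult1a1*, the major phenol sulfotransferase, did not separate the groups. Its level was 332, 319 and 341 CPM in control livers, a narrow range, against 201, 454 and 382 CPM in g*Spns1*-cKO livers, which lay on both sides of the controls. The coefficient of variation was 3.39% in control and 37.7% in g*Spns1*-cKO livers. The log2 fold change was 0.06 (SE 0.26), and without g*Spns1*-cKO replicate 1, the liver below the controls, it was 0.33 (SE 0.13), still not called. A missed call with this spread does not show that the groups were alike.

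The members that were lower by the largest amounts were *Sult2a8* and *Sult5a1*. *Sult2a8*, which sulfates bile acids in mouse liver, was among the most abundant members in control livers at 812, 639 and 832 CPM. In g*Spns1*-cKO livers it was measured at 114, 15.6 and 21.4 CPM. Each g*Spns1*-cKO liver was far below every control, and replicate 1 was the highest of them. The means were 761 ± 106 and 50.4 ± 55.3 CPM (SD, n = 3) and the log2 fold change was -3.92 (SE 0.98). Without g*Spns1*-cKO replicate 1 the log2 fold change was -5.36 (SE 0.23). The call was lost when any other mouse was left out in turn, with log2 fold changes between -4.04 and -3.49.

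The bases before the furthest RefSeq start of *Sult2a8* that lie outside the gene in both annotations are shown, because it was the member with the largest difference downward. Capitals mark 2 adjacent matches: the TATA box read on the opposite strand, then the C/EBP core TTGCNNAA, 223 to 218 and 217 to 210 bases before that start.
Sult2a8 chr7:14446781-14446837 (reverse strand, RefSeq, GRCm38.p6): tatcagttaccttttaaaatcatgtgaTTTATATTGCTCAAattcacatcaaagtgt
RefSeq gives *Sult2a8* a further start at base 14438551, with a TATA box 29 to 24 bases before it. The counts per gene do not tell which start was used.

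Of the 8 *Sult2a* genes, which share 870 kb of chromosome 7 (bases 13623967 to 14494230) with 18 other genes that had too few counts to be tested, *Sult2a8* and its neighbour *Sult2a7* were the only ones with counts in every control liver. *Sult2a7*, not one of the 10 members, had 88, 70 and 158 counts in control and 9, 14 and 12 counts in g*Spns1*-cKO livers. Its log2 fold change was -3.64 (SE 0.43, adjusted p = 0.000163 by edgeR). *Sult2a1*, the hydroxysteroid sulfotransferase that acts on dehydroepiandrosterone, had 2, 0 and 0 counts in control and 2, 32 and 5 counts in g*Spns1*-cKO livers. The groups overlapped, and the ratio of the summed counts, corrected for library size, was 14.4 with a 95% interval of 3.74 to 124 that covers counting error only. *Sult2a2*, *Sult2a3* and *Sult2a5* had 0 counts in every control. In g*Spns1*-cKO replicates 1, 2 and 3, *Sult2a2* had 0, 242 and 7 counts, *Sult2a3* 0, 35 and 34, and *Sult2a5* 0, 28 and 3. For all 3 genes the counts came from g*Spns1*-cKO replicates 2 and 3 and not from replicate 1. *Sult2a4* and *Sult2a6* had 0 counts in all libraries. A count of 0 allowed a level of up to 0.0763 to 0.119 CPM, depending on the library (3 counts per library). In the sum over all *Sult2a* genes a read assigned to the wrong copy does not matter. A read left uncounted because it fits several copies would still be missing. This sum was 765 ± 107 CPM in control and 54.0 ± 52.3 CPM in g*Spns1*-cKO livers, 14.1-fold lower. Without g*Spns1*-cKO replicate 1, a value added after the data were seen, the sum was 23.9 CPM and 32.1-fold lower.

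*Sult5a1*, on chromosome 8, was measured at 6.15, 11.8 and 9.60 CPM in control and 2.92, 0.626 and 1.09 CPM in g*Spns1*-cKO livers. Replicate 1 was again the g*Spns1*-cKO liver nearest to the controls, and the groups did not overlap. The log2 fold change was -2.58 (SE 0.57), or 5.98-fold lower, and -3.41 (SE 0.36) without that liver. Without g*Spns1*-cKO replicate 3 it was -2.38 and no longer called. *Sult3a1*, an amine sulfotransferase encoded on chromosome 10, had 1, 0 and 0 counts in control and 16, 26 and 18 counts in g*Spns1*-cKO livers. Every g*Spns1*-cKO liver held more counts than any control, at a mean of 0.527 ± 0.131 CPM (SD, n = 3). The ratio of the summed counts, corrected for library size, was 44.5, with a 95% counting interval of 7.68 to 1780 because the control total was 1 count. *Sult3a2*, its neighbour with 90.9% identity in coding sequence, had 0 counts in every library.

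Among the *Sult* genes that are not members and not of the *Sult2a* cluster, counts were low. *Sult2b1*, a cholesterol and pregnenolone sulfotransferase, had 0, 2 and 0 counts in control and 2, 14 and 5 in g*Spns1*-cKO livers. *Sult4a1*, known from brain, had 1, 6 and 0 counts in control and 3, 5 and 2 in g*Spns1*-cKO livers, and *Sult6b1* had 0, 3 and 0 in control and 6, 3 and 5 in g*Spns1*-cKO livers. The groups overlapped or touched in all 3. *Sult1c1* and *Sult6b2* had 0 counts in all libraries.

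The make-up of the sulfotransferase transcripts was compared between genes per kilobase of gene length. In control livers *Sult2a8* (44.7% ± 1.71, SD, n = 3) and *Sult1a1* (42.7% ± 3.37) made up most of the summed level of the 10 members. In g*Spns1*-cKO livers *Sult1a1* was at 60.2% ± 11 and *Sult1d1* at 21.4% ± 1.84, against 9.15% ± 1.75 for *Sult1d1* in control livers. *Sult1e1* went from 0.0258% ± 0.0105 to 7.29% ± 2.65 and *Sult1c2* from 0.462% ± 0.0283 to 3.89% ± 0.680. *Sult2a8* took 12.4%, 1.04% and 1.72% in g*Spns1*-cKO replicates 1, 2 and 3. Thus *Sult2a8* and *Sult1a1* were the most abundant pair in all 3 control livers, and *Sult1a1* and *Sult1d1* in all 3 g*Spns1*-cKO livers. *Sult2a8* and *Sult1a1* did not keep 1 order among the controls: in control replicate 2 *Sult1a1* was higher (46.6% against 42.8%).

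The summed level of the 10 members was 535, 454 and 561 CPM per kilobase in control and 280, 454 and 379 CPM per kilobase in g*Spns1*-cKO livers. The lowest control and the highest g*Spns1*-cKO liver were level on this scale, and the log2 ratio of the means was -0.48. Without the length correction, which gives long genes more weight, the sums were 1320, 1080 and 1380 CPM against 554, 783 and 669 CPM. The groups did not overlap there, and the log2 ratio of the means was -0.91. This value was -0.47 with library size only. The sum over the 5 *Sult1* members alone was 490 ± 53.8 CPM in control and 616 ± 166 CPM in g*Spns1*-cKO livers, with the levels of both groups overlapping.

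**Figure D3:**
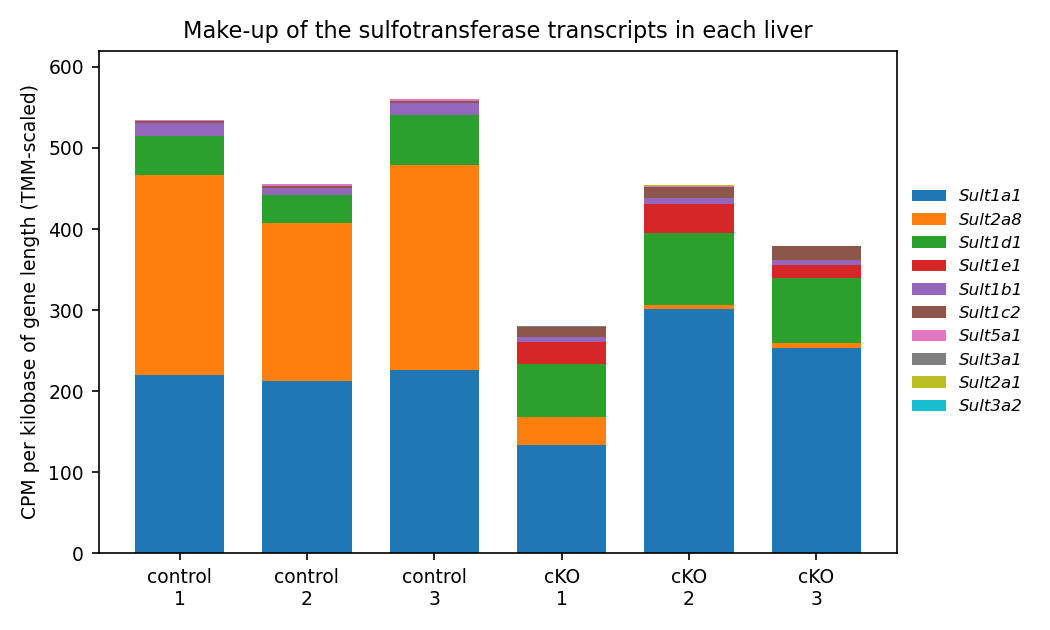
Stacked level of the 10 sulfotransferase genes in each liver, as TMM-scaled CPM per kilobase of gene length from 0. Sult2a8 (orange) takes 42.8% to 46.2% of the bar in control livers and 1.04% to 12.4% in gSpns1-cKO livers, where Sult1d1 (green), Sult1e1 (red) and Sult1c2 (brown) are larger.

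The distance of g*Spns1*-cKO replicate 1 from the other g*Spns1*-cKO livers differed between members. For *Sult2a8* the log2 ratio to the control mean was -2.74 in replicate 1 and -5.61 and -5.15 in replicates 2 and 3. For *Sult5a1* it was -1.66 against -3.88 and -3.07, and for *Sult1a1* -0.72 against 0.46 and 0.21. For *Sult1e1*, by contrast, replicate 1 (7.64) lay between replicates 2 and 3 (8.03 and 6.95), as it did for *Sult1b1* (-0.93, between -0.81 and -1.15). *Sult1c2* and *Sult1d1* were lowest in replicate 1 by less, at 2.31 against 2.56 and 2.79 and at 0.45 against 0.91 and 0.74.

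Because several SULTs differ between the sexes, genes known to be higher in female or in male mouse liver were examined in the same libraries. Of 19 male-biased genes tested, 15 were called lower in g*Spns1*-cKO livers, 0 higher, and all 19 were lower without overlap, with a median log2 fold change of -4.97. Over all genes tested, 20.5% were called lower and 26.9% were lower without overlap. *Mup7* and *Mup11*, which encode major urinary proteins of male liver and have near-identical relatives that make their counts uncertain, had at least 12832 counts in each control liver and at most 2 in each g*Spns1*-cKO liver. Both had enough counts to be tested only through the control livers. Of 14 female-biased genes tested, with a median of 2.29, 8 were called higher and 1 lower, against 21.3% and 20.5% of all genes. Some of them had enough counts to be tested only through the g*Spns1*-cKO livers, which favours calls upward and raises the median. *Cyp2b9*, a cytochrome P450 of female liver, was such a gene, with 5, 4 and 22 counts in control livers. It rose (log2 fold change 8.47, SE 2.14, adjusted p = 0.0386 by edgeR). That call was lost with limma-voom (7.56), with a filter of at least 1 count in any library (8.46) and when any mouse except g*Spns1*-cKO replicate 1 was left out (7.93 to 9.72). *Cyp17a1*, a steroid hydroxylase, fell by 1.43 on the log2 scale (SE 0.15, adjusted p = 8.75e-05 by edgeR). For *Cyp2b9* the log2 ratio to the control mean was 3.34 in g*Spns1*-cKO replicate 1 and 9.10 and 8.84 in replicates 2 and 3. *Cux2*, a regulator of female liver genes, with 1.48 against 6.70 and 6.54, and *Mup20*, with -2.69 against -8.06 and -8.22, were chosen after their values were seen and were not called. Over the whole lists, replicate 1 was the g*Spns1*-cKO liver nearest to the control mean for 17 of the 19 male-biased and 8 of the 14 female-biased genes, against 42.0% of all genes tested. Among the members it was nearest for *Sult2a8* and *Sult5a1*, which were lower, and for *Sult1c2*, *Sult1d1* and *Sult3a1*, which were higher. The part of sex-biased expression in the levels of these members was not tested.

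The animals' own sex chromosomes did not divide the groups. *Xist*, the transcript of the inactive X chromosome, had 3, 0 and 1 counts in control and 2, 1 and 5 counts in g*Spns1*-cKO livers. The Y-linked genes *Ddx3y*, *Eif2s3y*, *Kdm5d* and *Uty* had at least 324 counts in every library. By these counts every library, in both groups, showed the pattern of a male animal. *Kdm5d*, a histone demethylase, was higher in g*Spns1*-cKO livers by 0.47 on the log2 scale (SE 0.13, adjusted p = 0.0149 by edgeR), a call lost without control replicate 2 (0.37) or g*Spns1*-cKO replicate 3 (0.44), while *Ddx3y* (-0.06, SE 0.12), *Eif2s3y* (0.10, SE 0.15) and *Uty* (0.19, SE 0.12) were not called.

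**Figure D4:**
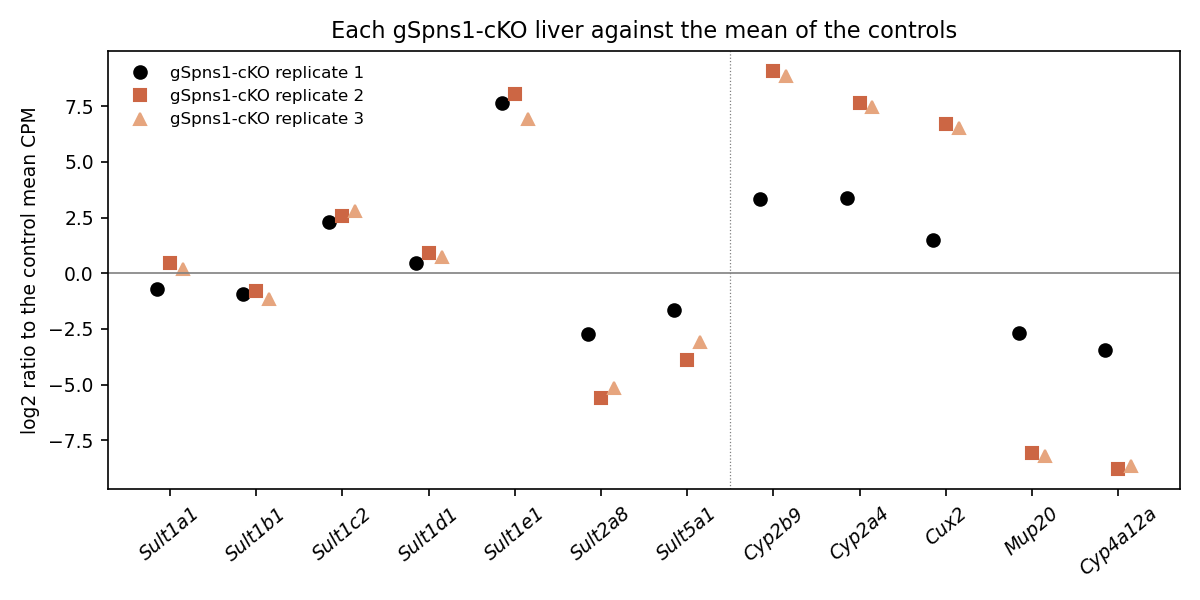
Log2 ratio of each gSpns1-cKO liver to the mean CPM of the 3 controls for 7 sulfotransferase genes (left of the dotted line) and 5 sex-biased genes (right), which apart from Cyp2b9 were chosen after their values were seen. Replicate 1 (black circles) is nearest to 0 of the 3 livers for Sult1c2, Sult1d1, Sult2a8, Sult5a1 and the 5 sex-biased genes shown, whereas for Sult1e1 and Sult1b1 it lies between the other two.

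Genes that make and handle PAPS had log2 fold changes between -0.74 and 0.18. Of the 6 tested, 0 were called higher and 2 lower, against 21.3% and 20.5% of all genes. *Papss1* and *Papss2*, which synthesise PAPS, had log2 fold changes of 0.18 (SE 0.18) and 0.18 (SE 0.19) and were not called. *Papss2* was the more abundant of both in each liver, at 51.8 ± 8.56 against 5.65 ± 1.36 CPM per kilobase for *Papss1* in control livers. *Slc35b2*, the transporter that carries PAPS into the Golgi apparatus, was measured at 58.5, 62.6 and 64.0 CPM in control and 39.2, 37.8 and 33.7 CPM in g*Spns1*-cKO livers. It fell by 0.74 on the log2 scale (SE 0.10, adjusted p = 0.000389 by edgeR), and the groups did not overlap. *Slc35b3*, the other transporter of this kind, had a log2 fold change of 0.01 (SE 0.12). *Bpnt1*, a phosphatase that removes the by-product PAP in the cytosol, fell by 0.37 (SE 0.10, adjusted p = 0.014 by edgeR), but was at 0.07 with library size only and lost its call with upper-quartile scaling (-0.24) and without g*Spns1*-cKO replicate 3 (-0.34). *Impad1*, its Golgi counterpart, had a log2 fold change of 0.12 (SE 0.11). With library size only, 4 genes of this group were called higher and 1 lower, so the direction of the group depends on the scaling. *Slc35b2* was the 1 still called lower there (-0.30), and it was also called lower with upper-quartile scaling (-0.61).

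**Figure D5:**
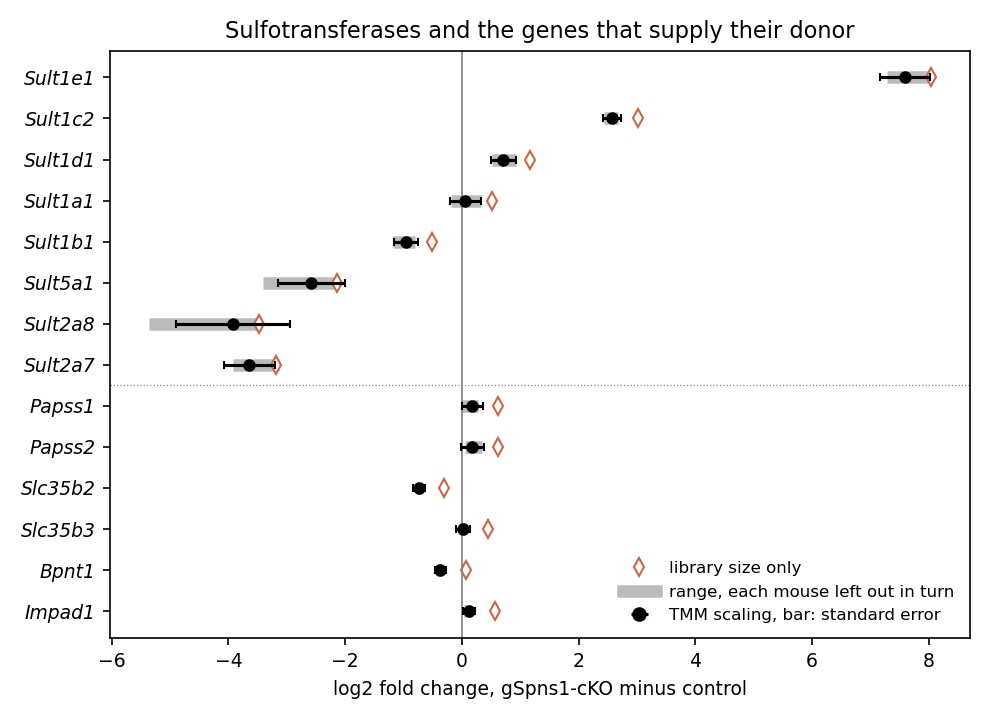
Log2 fold change, gSpns1-cKO minus control, of sulfotransferases (above the dotted line) and of genes that supply PAPS (below), with black points and bars for TMM scaling and its standard error, open diamonds for library size only, and grey bands for the range when each mouse is left out in turn. The sulfotransferases span -3.92 to 7.59, whereas the PAPS genes lie between -0.74 and 0.18 and Bpnt1 changes sign with library size only.

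Sulfate for PAPS comes from uptake and from the oxidation of cysteine. Of 13 genes of this supply tested, 6 were called lower and 1 higher, against 20.5% and 21.3% of all genes tested. Their median log2 fold change was -0.29. With library size only, 3 were called lower and 3 higher. *Mpst*, a sulfurtransferase that acts on a product of cysteine, was measured at 152, 161 and 146 CPM in control and 69.0, 70.7 and 55.0 CPM in g*Spns1*-cKO livers. It fell by 1.24 on the log2 scale (SE 0.12, adjusted p = 5.99e-05 by edgeR) and no library of 1 group reached the other. *Slc13a4*, a sodium sulfate cotransporter, fell from 55, 31 and 52 counts to 3, 10 and 1 counts (log2 fold change -3.72, SE 0.62, adjusted p = 0.00106 by edgeR). It had enough counts to be tested only through the control livers. *Slc26a2*, a sulfate transporter of the cell surface, rose by 0.58 (SE 0.20, adjusted p = 0.036 by edgeR). Its call was lost without control replicate 1 (0.63) or 2 (0.41) and without g*Spns1*-cKO replicate 1 (0.49) or 3 (0.56).

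Transcription factors and nuclear receptors known to act on liver *Sult* genes or on sex-biased liver genes were called lower for 9 and higher for 3 of 27 tested genes. Of all genes tested, 20.5% were called lower and 21.3% higher. The split of these regulators was 4 lower and 10 higher with library size only, and DESeq2 called 5 of them higher. *Cebpa*, a factor of mature hepatocytes, fell by 1.41 on the log2 scale (SE 0.18, adjusted p = 0.000213 by edgeR). *Onecut1* fell by 1.44 (SE 0.47, adjusted p = 0.0434 by edgeR), a call lost with upper-quartile scaling (-1.32), library size only (-1.01) and limma-voom (-1.31). It was also lost when any mouse except control replicate 3 was left out (-1.59 to -0.84). *Ppargc1a*, a coactivator of fasting metabolism, rose by 1.30 (SE 0.28, adjusted p = 0.00822 by edgeR), and *Nr0b2*, the bile acid responsive repressor SHP, by 1.20 (SE 0.22, adjusted p = 0.00338 by edgeR).

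Marker genes of several liver cell types differed between the groups. The share over all genes tested was 21.3% called higher and 20.5% called lower. Hepatocyte markers, 10 of 10 tested with 6 called lower and 0 higher, summed to 105000 to 121000 CPM in control and 64100 to 76000 CPM in g*Spns1*-cKO livers. All 10 macrophage markers were called higher, and their sum went from 207 to 313 CPM in control to 684 to 939 CPM in g*Spns1*-cKO livers. Cholangiocyte markers, with 7 of 8 called higher, went from 59.4 to 77.8 CPM to 188 to 301 CPM, stellate cell markers (6 of 8 higher) from 192 to 221 CPM to 511 to 557 CPM, and endothelial markers (5 of 7 higher) from 144 to 158 CPM to 211 to 258 CPM. Lymphocyte and neutrophil markers (3 of 8 tested higher) summed to 5.19 to 6.11 CPM and 9.65 to 13.0 CPM. Of the kidney markers, 5 of 6 were at 0 in all libraries and the sixth had at most 3 counts. Among the intestinal markers *Sis* was at 0 and *Lct* had 1 count over all libraries, *Vil1* rose (log2 fold change 2.99, SE 0.73, adjusted p = 0.00838 by edgeR) and *Fabp2*, which liver also expresses, fell (-1.7, SE 0.19, adjusted p = 0.000178 by edgeR). Of the 6 pancreas markers, 4 had at most 3 counts in every library and 1 of the 2 tested was called lower. The part of these shifts in the levels of the sulfotransferases was not tested.

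The genes whose pattern over the 6 libraries was most like that of *Sult1e1*, among 8009 genes of at least 10 CPM on average, were *Cd63*, *Gpnmb* and *Rragd*. Their log2 CPM, centred on each gene's own mean, differed from *Sult1e1* by a root mean square of 0.49, 0.63 and 0.64. *Cd63* went from 150, 214 and 128 counts to 8141, 7895 and 9832 counts. The order within the g*Spns1*-cKO livers was another for *Sult1e1*, with 1207, 1690 and 818 counts. *Cd63*, *Gpnmb* and *Rragd* reached 10 CPM on average only through the g*Spns1*-cKO livers. The measure mostly follows the difference between the groups, with which the members were chosen, so likeness adds no support of its own. The genes most like *Sult2a8* were *Mup-ps13* (0.31), *Serpina12* (0.36) and *Slc22a7* (0.52). *Serpina12* had 4397, 4554 and 2668 counts in control and 545, 50 and 98 counts in g*Spns1*-cKO livers, with replicate 1 again highest among the latter.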

How the data were processed

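RNA-Seq of mouse liver was analysed for 3 gSpns1-cKO and 3 control animals, grouped by the sample labels. The authors deposited 1 table with raw counts per gene and library, not normalized and not pooled, and FPKM values, which divide counts by gene length and a library total. The submitters' processing notes name fastp, HISAT2 2.0.5, featureCounts 1.5.0-p3 and mm10 (GRCm38). The annotation release and the strand setting are not given in the sources used here. The table further holds the authors' own comparison, a mean signal per group, a log2 fold change, a p-value and an adjusted p-value. These deposited columns were not used. The FPKM values served only to check library totals. The totals they imply were 0.837 to 0.88 times the summed counts in control and 1.17 to 1.20 times in gSpns1-cKO libraries. They are therefore not the plain totals of the counts.

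Counts were tested in R 4.3.3 with edgeR 4.0.16 (filterByExpr, TMM, robust quasi-likelihood test, Benjamini-Hochberg adjustment over 15449 genes, threshold 0.05, no covariate). Genes filtered out were called not tested. CPM are counts over TMM-scaled library sizes (factors 0.834 to 0.873 in control and 1.16 to 1.18 in gSpns1-cKO), also divided by the deposited gene length. Intervals are 95% and, like the floor of 3 counts, cover counting error only. Tested on simulated data with 200 changed genes, the edgeR step recovered 139 and made 10 false calls among 15144 genes.

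The members and all gene lists were chosen with earlier results of these data known. Besides the members, the text names Spns1, all measured Sult, PAPS and sex chromosome genes, and for each of the other sulfation, regulator and sex-biased lists the called genes, up to 2 with the largest rise and 2 with the largest fall. For the members with the largest rise and the largest fall it also names the 3 genes of at least 10 CPM most like them (log2 CPM with 0.5 added). Marker genes and those said to be chosen after their values were seen are exceptions. A gene that the rule selects is not reported here. Protein sequences, planned for the same members, were not used here. Coding sequences were aligned with Biopython 1.88. Alternatives were DESeq2 1.42.0, limma-voom (limma 3.58.1), upper-quartile scaling, library size only, other filters on low counts, a threshold of 0.01, summed paralogs, a replicate block and leaving out each mouse. The summed Sult2a level without 1 liver and the counts of sex-biased genes nearest to the controls in that liver were added after the data were seen.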

Additional observations from a re-analysis of the deposited data

How the results depend on the processing

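Each difference rests on 3 mice a group, and depth limits genes near 0 counts. With a threshold of 0.01, 3890 of all genes were called in place of 6452, and 1 member lower in place of 3. With at least 10 counts in every library, 2 members were called higher in place of 4, since this filter removes *Sult1e1* and *Sult3a1*. Leaving out each mouse gave 4490 to 6429 calls over all genes, 3 to 4 members higher, 1 to 3 lower and a log2 ratio of the summed level of -1.04 to -0.80. The 1 came without gSpns1-cKO replicate 3. With library size only the summed level was -0.47 in place of -0.91, and *Bpnt1* (0.07), *Hs6st1* (0.10) and *Ddx3y* (0.39) changed sign, by the construction of that scaling. Of 104 values of the 8 tested members under alternatives, 92 kept their side of the threshold and 12 lost the call (*Sult2a8* 6, *Sult1d1* 4, *Sult1b1* 1, *Sult5a1* 1). *Sult1a1*, called in none of them, was at -0.18 to -0.02 in 4 against 0.06. The sixth loss of *Sult2a8* came with at least 1 count in any library (-3.92, SE 1.03). Both this filter and DESeq2 called 5 members higher, and this filter called 2 lower. The added higher call was *Sult2a1*, which the main fit did not test. Its groups overlapped (2, 0 and 0 counts in control and 2, 32 and 5 in gSpns1-cKO livers), and its counts are uncertain. With the replicate block 6100 genes were called and 4 members higher and 3 lower, and *Hs6st1* (-0.34) and *Sumf2* (-0.50) lost their calls. Deviations of same-numbered mice correlated at 0.0371, 0.0331 and -0.0279. With 3 mice a group, these values cannot tell whether same-numbered mice were littermates or handled together, and the labels do not say. Summing *Sult3a1* and *Sult3a2* left *Sult3a1* at 5.08.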

Other observations

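Sulfotransferases of the Golgi apparatus, which sulfate proteoglycans, glycolipids and tyrosines with the same donor as the cytosolic family, were also measured. Of 36 such genes, 20 were tested. Among these, 8 were called higher and 2 lower in gSpns1-cKO livers, against 21.3% and 20.5% of all genes tested. Their median log2 fold change was 0.11. Some of the genes called higher had enough counts to be tested only through the gSpns1-cKO livers, which favours calls upward. *Chst11*, a chondroitin 4-sulfotransferase, had 8, 5 and 3 counts in control and 37, 35 and 65 counts in gSpns1-cKO livers. It was among the genes tested only through the gSpns1-cKO livers and rose by 2.64 on the log2 scale (SE 0.48, adjusted p = 0.00169 by edgeR). *Ust*, which sulfates uronic acids of dermatan and chondroitin chains, rose by 1.98 (SE 0.37, adjusted p = 0.00195 by edgeR). *Gal3st1*, which makes sulfatide, was measured at 5.55, 6.46 and 5.18 CPM in control and 2.70, 3.57 and 2.09 CPM in gSpns1-cKO livers and fell by 1.04 (SE 0.23, adjusted p = 0.00514 by edgeR), a call lost with library size only (-0.60). *Hs6st1*, a heparan sulfate 6-sulfotransferase, fell by 0.34 (SE 0.12, adjusted p = 0.0444 by edgeR) but was at 0.10 with library size only, where 10 genes of this group were called higher and 0 lower. Its call was also lost with upper-quartile scaling (-0.21), with at least 10 counts in every library (-0.30) and when any mouse except control replicate 1 was left out (-0.40 to -0.29). The summed level of the group was 424 to 449 CPM in control and 400 to 424 CPM in gSpns1-cKO livers.

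Sulfatases and their activating factors take sulfate off again. Of 6 tested, 1 was called higher and 1 lower, against 21.3% and 20.5% of all genes tested. *Arsk*, a lysosomal sulfatase, rose by 0.62 (SE 0.15, adjusted p = 0.0075 by edgeR), and *Sumf2*, a relative of the enzyme that activates sulfatases, fell by 0.51 (SE 0.16, adjusted p = 0.0278 by edgeR), a call lost with upper-quartile scaling (-0.38), library size only (-0.07) and without control replicate 2 (-0.38), gSpns1-cKO replicate 2 (-0.46) or gSpns1-cKO replicate 3 (-0.52).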
